A study of Mus musculus with 6 samples.

Results

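The transcripts of 47 genes of the Wnt pathway, taken from a list by name out of 53379 counted genes, were measured in mouse intestinal stem cells sorted for high EGFP from the Lgr5 locus. The 6 RNA-seq libraries comprised 3 controls of genotype Lgr5-EGFP-IRES-CreERT2;Rosa-tdTomato and 3 libraries labelled Klf5-KO, which carried the same alleles and Klf5fl/fl in addition. All mice were adult C57BL/6 and received 1 mg of tamoxifen in corn oil on each of 5 days, so the controls also carried the Cre recombinase and the drug. CreERT2 is made only in cells in which the Lgr5 locus is active, and the same locus drives the EGFP used for the sort. The age in weeks, the sex and the interval between tamoxifen and sorting were not given in the sources used here.

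Wnt ligands are lipid-modified secreted proteins that bind a Frizzled receptor together with an Lrp5 or Lrp6 co-receptor. Without ligand, a complex of Axin, Apc and Gsk3 marks β-catenin for destruction, and with ligand β-catenin enters the nucleus and binds Tcf and Lef proteins on target genes, displacing Tle co-repressors. In the intestinal crypt this pathway maintains the Lgr5+ stem cells, with ligands coming from Paneth cells and from cells of the surrounding stroma.

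Depth was 61563625 to 77666540 counts per library, and 3 counts corresponded to 0.0389 to 0.0484 CPM (counts scaled to the same library total). Klf5 itself was counted at 480.3, 512 and 547 CPM in the controls and at 879.9, 918 and 877 CPM in those labelled Klf5-KO (log2 fold change 0.80, SE 0.10, edgeR quasi-likelihood adjusted p = 6.3e-04). The deposited count pools floxed and remaining exons, so the deletion could not be checked with it. On the first principal component (62.8% of the variance) the groups were apart, and control replicate 3 stood away from the other controls on the second (13.2%). The sum of 13 Paneth cell markers was 1789 and 2289 CPM in control replicates 1 and 2, 21471 CPM in control replicate 3, and 9909 to 12298 CPM in the KO-labelled libraries. Summed CPM of 8 crypt base stem cell markers was 8359.85 to 11457 in the controls and 4589 to 5899 in the KO-labelled libraries. The sorted population's own markers were thus present in every library. Most of the gap between these sums was that of Olfm4. It was at 7199, 7918 and 5556 CPM in the controls and at 2295, 1540 and 2770 CPM in the KO-labelled libraries. Of the 8 markers 6 were called lower, Prom1 was called higher and Slc12a2 was not called. Stromal markers were close to absent, at 7.85 to 11.4 CPM in the controls and 3.77 to 4.66 CPM in the KO-labelled libraries over 12 genes. In bulk libraries of this kind, fewer cells of a type and less RNA per cell cannot be told apart.

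Of the 47 genes, 45 had enough counts to be tested; Dkk2 and Wif1 did not. In the KO-labelled libraries 12 were lower and 3 were higher, 33.3% of those tested, against 25.8% of all 19339 genes tested (edgeR, Benjamini-Hochberg adjusted p under 0.05 over all of them). Split by direction, 26.7% of the tested members were lower, against 12.5% of all genes, and 6.67% were higher, against 13.3%. The median log2 fold change of the tested members was -0.15, against -0.01 over all genes. The KO-labelled libraries all lay below all controls for 16 of the 45 members (all genes, 21.0%) and all lay above them for 10 (all genes, 22.2%). Sfrp5, a secreted inhibitor, fell 20.5-fold, more than any other tested member, and Axin2, a scaffold of the destruction complex and itself a target of the pathway, fell 2.56-fold. The 3 genes that rose were a receptor, Fzd7, and the nuclear factors Tcf7l2 and Tle1. Without control replicate 3 the counts were 13 lower and 5 higher. In that fit 2664 of all 19879 genes tested were lower and 2740 higher, against 2413 and 2581 of 19339 with every library.

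**Figure D1:**
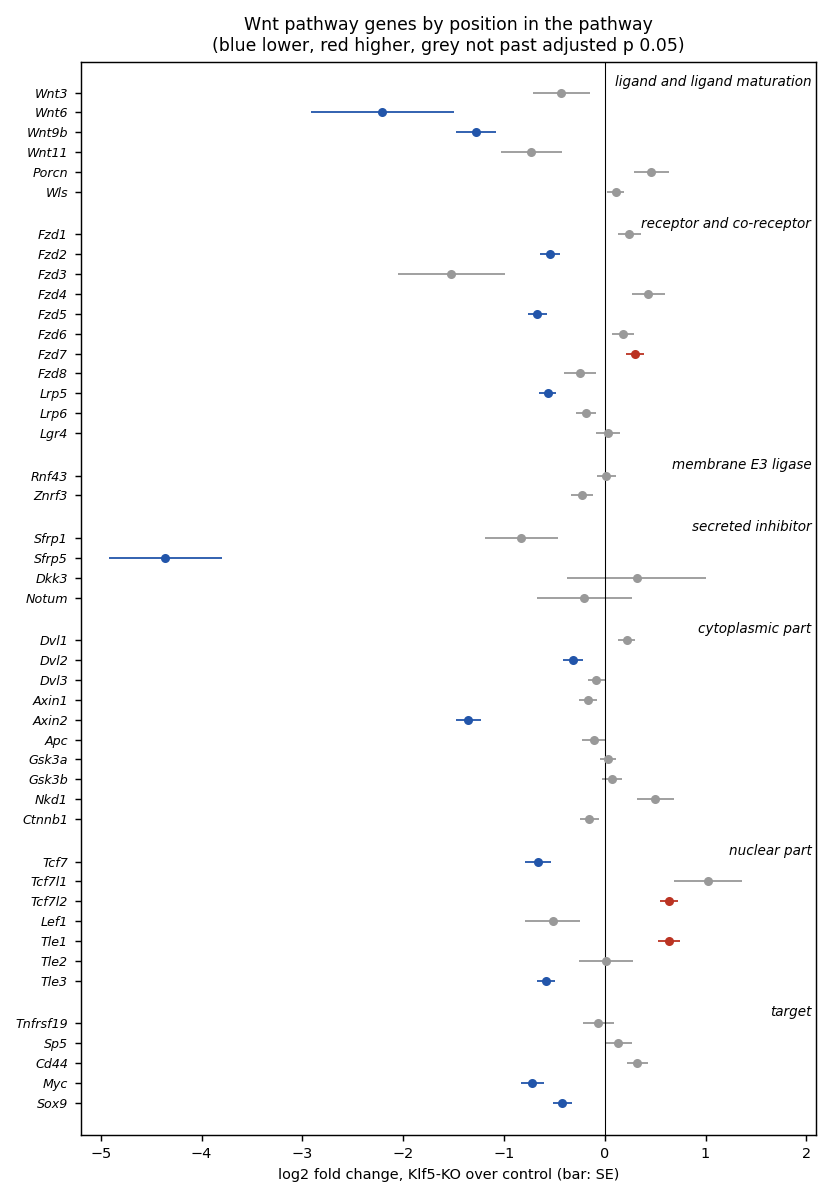
Log2 fold change (KO-labelled over control, horizontal axis; bars are 1 SE) of the 45 tested members, grouped by position in the pathway. Lower calls (12) are blue, higher calls (3) are red and the other 30 are grey; Sfrp5 lies farthest to the left at -4.36.

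**Figure D2:**
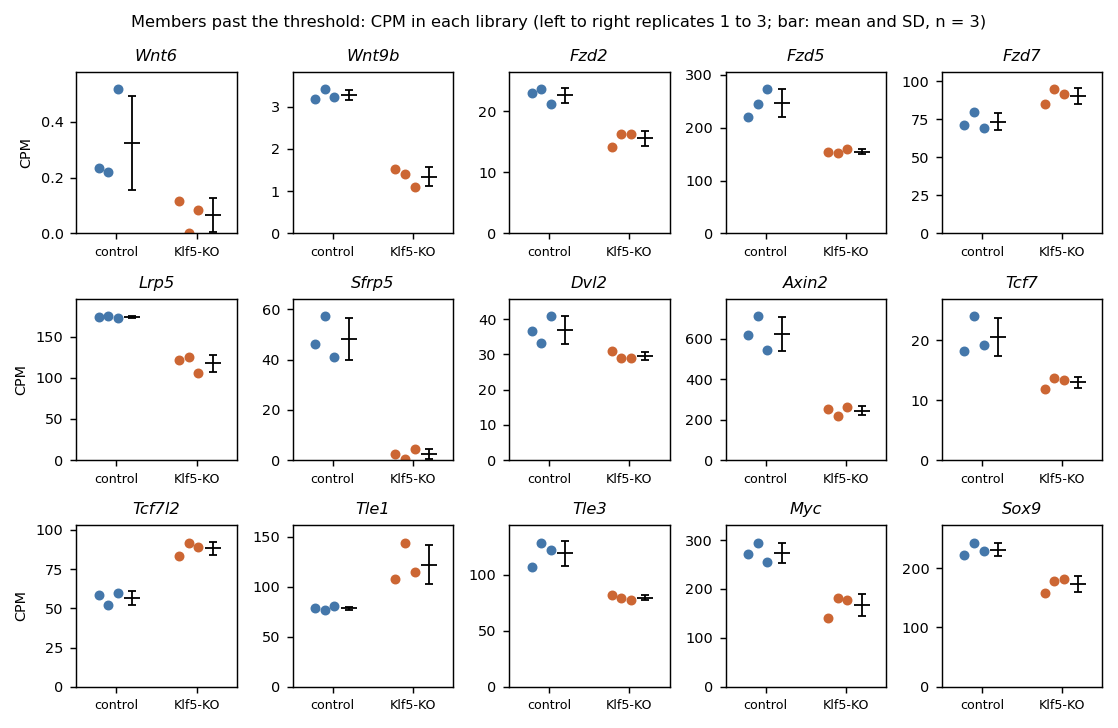
CPM of the 15 called members in each of the 6 libraries, with the mean and SD of each group (n = 3) beside the points. The groups do not overlap in any of the 15 panels.

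RefSeq promoter windows (GRCm38.p6, 250 bases before to 50 after RefSeq's own gene start) were found for 32 of the 47 members. For 23 of them that start lay within 50 bases of the gene start in the deposited files, and for the other 9 it lay farther away, by up to 6279 bases. The windows of Sfrp5 and Axin2, which fell, and of Tcf7l2, which rose, are among the 23 and are shown 5′ to 3′ on the gene's strand. They are Sfrp5 at chr19:42202203-42202502 (minus), Axin2 at chr11:108920099-108920398 (plus) and Tcf7l2 at chr19:55741560-55741859 (plus). Capitals mark every match on either strand to 3 motifs, of which the last 2 can overlap. CTTTGA, read as TCAAAG on the other strand, is the core recognised by Tcf and Lef proteins. CACCC, read as GGGTG, is the box bound by Klf family factors, and GGGCGG, read as CCGCCC, is the GC box.
Sfrp5: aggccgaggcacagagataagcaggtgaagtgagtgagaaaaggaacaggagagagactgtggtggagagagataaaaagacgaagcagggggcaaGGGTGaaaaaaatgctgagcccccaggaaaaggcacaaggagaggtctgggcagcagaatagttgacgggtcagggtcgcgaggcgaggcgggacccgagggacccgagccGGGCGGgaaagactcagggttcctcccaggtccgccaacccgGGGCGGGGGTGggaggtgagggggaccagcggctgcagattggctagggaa
Axin2: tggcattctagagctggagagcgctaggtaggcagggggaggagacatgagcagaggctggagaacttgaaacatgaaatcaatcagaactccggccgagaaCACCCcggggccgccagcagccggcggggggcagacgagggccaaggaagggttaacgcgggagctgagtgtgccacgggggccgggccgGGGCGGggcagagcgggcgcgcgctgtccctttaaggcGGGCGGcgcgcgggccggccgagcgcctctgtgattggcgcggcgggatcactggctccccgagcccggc
Tcf7l2: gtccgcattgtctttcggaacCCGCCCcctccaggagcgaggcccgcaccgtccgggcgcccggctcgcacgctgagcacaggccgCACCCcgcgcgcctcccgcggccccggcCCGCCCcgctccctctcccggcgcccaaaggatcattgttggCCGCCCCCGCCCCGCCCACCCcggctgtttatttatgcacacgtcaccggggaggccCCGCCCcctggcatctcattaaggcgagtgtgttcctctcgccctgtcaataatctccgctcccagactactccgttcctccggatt
CTTTGA was in 5 of the 32 member windows (Wnt11, Fzd1, Gsk3a, Gsk3b and Sp5) and in 16.0% of all 32544 windows of this length. It was in none of the windows of 8 lower and 3 higher members, which says only that these letters are not in those 300 bases. CACCC was in 4 of the 8 windows of lower members, in 3 of the 3 of higher members and in 14 of the 19 of members tested without a call, against 57.7% of all windows. GGGCGG was in 7 of 8, 3 of 3 and 12 of 19 of them, against 35.9% of all windows. In the 23 windows close to the deposited gene start, CTTTGA was in 4, CACCC in 17 and GGGCGG in 19. Each of the 3 windows printed holds CACCC and GGGCGG matches, whether its gene fell or rose. No binding data were used here, and a match describes the letters only.

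Among the secreted ligands, Wnt9b and Wnt6 fell, while Wnt3 and Wnt11 did not pass the test. Wnt9b was at 3.17, 3.41 and 3.23 CPM in the controls and at 1.534, 1.402 and 1.105 CPM in the KO-labelled libraries. The groups were well apart and close within themselves, and the log2 fold change was -1.28 with an SE of 0.20 (edgeR adjusted p = 0.0018). Its gene lies on chromosome 11 at 103727364-103749821 (mm10, minus strand), 24.3 kb from that of Wnt3 on the plus strand (103774150-103817957). Wnt3, the ligand that Paneth cells supply in the crypt, was at 4.92, 4.21 and 9.75 CPM in the controls and at 4.499, 5.02 and 4.46 CPM in the KO-labelled libraries. Control replicate 3 was well above the rest and the other 5 libraries overlapped. Its log2 fold change was -0.43 with an SE of 0.29 (adjusted p = 0.30), and 0.03 without that replicate (adjusted p = 0.91). Wnt6 (chromosome 1, 74771892-74785322) rested on 17, 17 and 32 counts in the controls (0.234, 0.220 and 0.516 CPM) and on 8, 0 and 6 counts in the KO-labelled libraries (0.117, 0 and 0.0829 CPM). All the KO-labelled libraries were lower, but at these few counts the call (adjusted p = 0.047, log2 fold change -2.21 ± 0.71 SE) was lost on leaving out any one library, with adjusted p from 0.062 to 0.13 and a value of -2.83 without KO-labelled replicate 1. With every library kept, the call was also lost under a block on the replicate number (edgeR adjusted p = 0.0502). Wnt11 ranged from 0.811 to 1.68 CPM in the controls and from 0.649 to 0.748 CPM in the KO-labelled libraries (adjusted p = 0.11, log2 fold change -0.73 ± 0.31 SE). Wnt3, Wnt6 and Wnt11 each had their highest level in control replicate 3. So did each of the 13 Paneth cell markers and 9 of the 10 enteroendocrine cell markers. The Paneth cell sum was higher in the KO-labelled libraries than in control replicates 1 and 2. In the same comparison Wnt6 and Wnt11 were lower and Wnt3 overlapped. The part of either cell type in these levels was not tested. Wnt9b was not highest there, and its log2 fold change without that library was -1.29 (adjusted p = 0.0032).

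**Figure D3:**
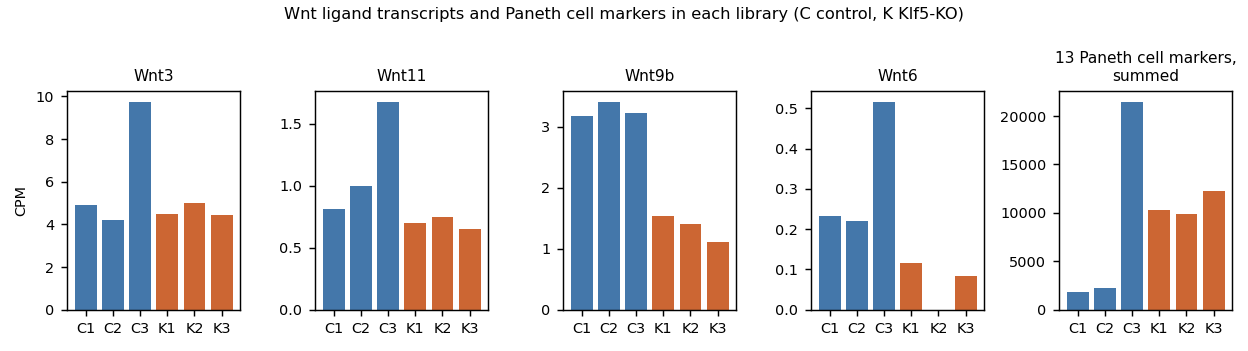
CPM of 4 Wnt ligands and the summed CPM of 13 Paneth cell markers (vertical axes from 0) in control (C1 to C3) and KO-labelled (K1 to K3) libraries. Wnt3, Wnt11, Wnt6 and the markers are highest in C3, where the marker sum is 21471 CPM, whereas Wnt9b is even over the controls and lower in each KO-labelled library.

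Neither gene of ligand maturation passed the test. Wls, the carrier that takes Wnt proteins to the cell surface, was at 50.5, 53.6 and 51.1 CPM in the controls and at 54.9, 52.7 and 59.8 CPM in the KO-labelled libraries. The groups overlapped (adjusted p = 0.37, log2 fold change 0.11 ± 0.08 SE). Porcn, the acyltransferase that attaches the lipid, was at 2.68 to 3.58 CPM and at 4.31 to 4.60 CPM without overlap (adjusted p = 0.082, log2 fold change 0.46 ± 0.17 SE).

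The Frizzled receptors did not move together: Fzd5 and Fzd2 fell and Fzd7 rose. Fzd5, the Frizzled with the highest level per length in the controls (chromosome 1, 64730558-64737751, mm10), was at 220.4, 246 and 273 CPM in the controls and at 153, 152 and 159 CPM in the KO-labelled libraries. Every control was higher, and the KO-labelled values were nearly the same (adjusted p = 0.0013, log2 fold change -0.67 ± 0.10 SE). Fzd2 (chromosome 11, 102604396-102608058) was at 23.0, 23.6 and 21.3 CPM in the controls and at 14.2, 16.3 and 16.2 CPM in the KO-labelled libraries. Here too the groups were apart (adjusted p = 0.0048, log2 fold change -0.54 ± 0.10 SE). Fzd7, a receptor known for a role in these stem cells (chromosome 1, 59482424-59486955), was at 71.1, 79.9 and 69.4 CPM in the controls and at 84.7, 94.7 and 91.7 CPM in the KO-labelled libraries. The groups were apart by a small gap, with a log2 fold change of 0.30 ± 0.09 SE (adjusted p = 0.036). That call was lost in 4 of the 6 fits that left out a library, with adjusted p of up to 0.11. Of the other Frizzled genes, Fzd1, Fzd4 and Fzd6 had log2 fold changes of 0.24, 0.43 and 0.18, and Fzd3 and Fzd8 of -1.52 and -0.24, with adjusted p from 0.062 to 0.30. Fzd3 was low and uneven, at 2.21 CPM in control replicate 1 and 0.190 to 0.823 CPM elsewhere, and without control replicate 1 its log2 fold change was -0.79 (adjusted p = 0.24).

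The co-receptor Lrp5 fell, and its relative Lrp6 did not pass the test. Lrp5 (chromosome 19, 3584828-3686564) was at 174, 175 and 173 CPM in the controls and at 121, 125 and 106 CPM in the KO-labelled libraries. The controls were almost identical and all higher (adjusted p = 0.0018, log2 fold change -0.57 ± 0.09 SE). Lrp6 was at 151, 161 and 129.97 CPM in the controls and at 138, 121 and 129 CPM in the KO-labelled libraries, which overlapped (adjusted p = 0.20, log2 fold change -0.19 ± 0.10 SE). Control replicate 3 was the lowest control, and without it the Lrp6 value was -0.27 (adjusted p = 0.040). Lgr4, a receptor for the R-spondins that amplify Wnt signals, was at 260.2, 270.3 and 241 CPM in the controls and at 239, 311 and 241 CPM in the KO-labelled libraries. The KO-labelled values enclosed those of the controls, and the log2 fold change was 0.04 with an SE of 0.12 (adjusted p = 0.85). Lgr5, the related receptor whose locus carries the reporter, was lower, at 132, 163 and 128 CPM against 96.8, 81.2 and 84.9 CPM (adjusted p = 0.0027, log2 fold change -0.68 ± 0.11 SE).

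The membrane ubiquitin ligases Rnf43 and Znrf3, which remove Frizzled receptors from the surface and are themselves induced by the pathway, did not pass the test. Rnf43 was at 233, 239 and 197 CPM in the controls and at 219, 225 and 232 CPM in the KO-labelled libraries (adjusted p = 0.92, log2 fold change 0.02 ± 0.10 SE). Znrf3 was at 52.0, 62.0 and 46.98 CPM in the controls and at 44.4, 47.6 and 45.7 CPM in the KO-labelled libraries (adjusted p = 0.16, log2 fold change -0.23 ± 0.11 SE). Both pairs of groups overlapped, and without control replicate 3 Znrf3 passed the threshold (log2 fold change -0.31, adjusted p = 0.036).

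Sfrp5 had the largest change of all the tested members. This secreted protein carries a Frizzled-like domain that binds Wnt ligands, and its gene lies on chromosome 19 at 42197971-42202252 (mm10, minus strand), and its promoter window is among those printed. It was at 46.0, 57.4 and 40.9 CPM in the controls and at 2.28, 0.405 and 4.28 CPM in the KO-labelled libraries, from 3348, 4423 and 2535 counts and 156, 26 and 310 counts. Each KO-labelled library was far below each control, and relative to their level they differed more from each other than the controls did. The log2 fold change was -4.36 with an SE of 0.56 (edgeR adjusted p = 7.1e-04), and without KO-labelled replicate 3, the highest of the KO-labelled libraries, it was -5.15. The other secreted inhibitors were scarce, and none passed the test. Sfrp1 stayed at or under 0.385 CPM in every library (adjusted p = 0.13, log2 fold change -0.83 ± 0.36 SE). Notum, an enzyme that removes the lipid from Wnt proteins, was at 0.151 to 0.484 CPM (adjusted p = 0.78, log2 fold change -0.20 ± 0.47 SE). Dkk3 was at 0.0550, 0.207 and 0.807 CPM in the controls and at 0.405 to 0.470 CPM in the KO-labelled libraries (adjusted p = 0.77, log2 fold change 0.32 ± 0.69 SE). Its value was set by control replicate 3, without which it was 1.69 (adjusted p = 0.042). Wif1, which binds Wnt proteins, had 10, 1 and 32 counts in the controls and 4, 5 and 2 in the KO-labelled libraries. Dkk2, a ligand of Lrp5 and Lrp6, had 2 counts in control replicate 1 and 0 in the other libraries.

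Of the 10 cytoplasmic parts, Axin2 and Dvl2 fell. Axin2, on chromosome 11 at 108920349-108950783 (mm10, plus strand), was at 617, 713 and 545 CPM in the controls and at 251, 219.5 and 262 CPM in the KO-labelled libraries. The lowest control was above the highest KO-labelled library by more than the range of either group (adjusted p = 1.1e-04, log2 fold change -1.36 ± 0.12 SE). Its constitutive relative Axin1 was at 71.6, 75.8 and 64.2 CPM in the controls and at 60.1, 64.3 and 64.6 CPM in the KO-labelled libraries. These overlapped slightly (adjusted p = 0.21, log2 fold change -0.16 ± 0.09 SE). Dvl2, a scaffold that passes the signal on from Frizzled (chromosome 11, 70000595-70012301), was at 36.8, 33.2 and 40.9 CPM in the controls and at 31.0, 28.9 and 29.0 CPM in the KO-labelled libraries. The groups were apart, but the change was small (adjusted p = 0.042, log2 fold change -0.32 ± 0.10 SE). The call was lost in 5 of the 6 fits that left out a library, with adjusted p of up to 0.13. With all 6 libraries it was also lost with no low-count filter (edgeR adjusted p = 0.075) and under a block on the replicate number (0.061). An exon of the microRNA gene Mir324 overlaps 1.41% of the Dvl2 exon bases on the same strand. The other Dishevelled genes, Dvl1 and Dvl3, had log2 fold changes of 0.22 and -0.08 and did not pass the test.

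Neither β-catenin nor Apc, Gsk3a or Gsk3b passed the test. Ctnnb1, which encodes β-catenin, was at 528, 549 and 504 CPM in the controls and at 478, 445 and 497 CPM in the KO-labelled libraries. All the KO-labelled libraries were lower, with a log2 fold change of -0.15 ± 0.09 SE (adjusted p = 0.27). Apc was at 157, 159 and 116 CPM in the controls and at 141, 135 and 126 CPM in the KO-labelled libraries. Control replicate 3 was the lowest of all 6 (adjusted p = 0.57, log2 fold change -0.11 ± 0.12 SE), and without it the value was -0.24 (adjusted p = 0.0497). Gsk3a and Gsk3b, the kinases of the destruction complex, had log2 fold changes of 0.03 and 0.07 (SE 0.08 and 0.10, adjusted p = 0.79 and 0.63). Nkd1, an inhibitor that binds Dishevelled, was at 10.05 to 15.1 CPM in the controls and 14.0 to 21.3 CPM in the KO-labelled libraries (adjusted p = 0.073, log2 fold change 0.50 ± 0.18 SE).

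In the nucleus, Tcf7 and Tle3 fell while Tcf7l2 and Tle1 rose. Tcf7, a DNA-binding partner of β-catenin (chromosome 11, 52252371-52283014, mm10), was at 18.1, 24.0 and 19.2 CPM in the controls and at 11.8, 13.7 and 13.3 CPM in the KO-labelled libraries. The groups were apart (adjusted p = 0.0058, log2 fold change -0.66 ± 0.13 SE). Tcf7l2, the member of that family that crypts depend on in mice (chromosome 19, 55741810-55933654), was at 58.3, 51.8 and 59.9 CPM in the controls and at 83.5, 91.9 and 89.0 CPM in the KO-labelled libraries. Every KO-labelled library was higher by more than the spread of either group (adjusted p = 0.0010, log2 fold change 0.64 ± 0.09 SE). Tle1, a co-repressor that Tcf proteins recruit (chromosome 4, 72117142-72200919), was at 78.3, 77.0 and 80.2 CPM in the controls and at 107, 144 and 115 CPM in the KO-labelled libraries. The controls were tight and all lower (adjusted p = 0.0036, log2 fold change 0.64 ± 0.11 SE). Tle3, a co-repressor of the same family (chromosome 9, 61372366-61418497), was at 107, 129 and 122 CPM in the controls and at 82.1, 79.1 and 77.8 CPM in the KO-labelled libraries. The order of the groups was the opposite of that for Tle1 (adjusted p = 0.0019, log2 fold change -0.58 ± 0.09 SE). Tcf7l1, a family member that mostly represses, was at 0.259 to 0.516 CPM in the controls and 0.649 to 0.774 CPM in the KO-labelled libraries, just outside the threshold of 0.05 (adjusted p = 0.051, log2 fold change 1.03 ± 0.34 SE). Lef1 and Tle2 stayed under 5 CPM and did not pass the test (log2 fold changes -0.51 and 0.01).

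Because these proteins work as families, shares were taken within each library from CPM per kilobase of exon. Each share is of the listed members of a family only, and it does not depend on the scaling between libraries. Fzd5 held 51.6 to 57.6% of the Frizzled total in the controls and 39.3 to 41.5% in the KO-labelled libraries, and Fzd7 held 22.3 to 25.9% and 34.9 to 37.3%. The ratio of Fzd5 to Fzd7 was 2.01 to 2.58 in the controls and 1.05 to 1.19 in the KO-labelled libraries. The Frizzled total was itself lower, at 61.8 to 68.5 CPM per kilobase in the controls and 53.5 to 56.6 in the KO-labelled libraries. Tcf7 and Tcf7l2 were present in like amounts in the controls, where the ratio of Tcf7l2 to Tcf7 was 0.65 to 0.97, and at 2.00 to 2.12 in the KO-labelled libraries. The total of the Tcf and Lef genes was nevertheless 14.7 ± 0.79 CPM per kilobase (SD, n = 3) in the controls and 15.4 ± 0.89 in the KO-labelled libraries. The ratio of Tle1 to Tle3 was 0.80 to 0.98 in the controls and 1.75 to 2.44 in the KO-labelled libraries. Totals for the 3 listed Tle genes were again within each other's spread (19.8 ± 1.01 and 21.4 ± 2.04 CPM per kilobase). That total leaves out Tle4, Tle5 and Tle6, so it is not that of the whole family. Of these, Tle4 was called higher, at 12.9 ± 0.50 against 17.0 ± 1.77 CPM per kilobase, and Tle5 and Tle6 were not called. The Axin total was 132 ± 16.8 CPM per kilobase in the controls and 60.8 ± 3.93 in the KO-labelled libraries, with Axin2 making up 85.5 to 86.7% and 70.4 to 74.4%. These ratios restate the levels above within a library and are not separate tests.

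**Figure D4:**
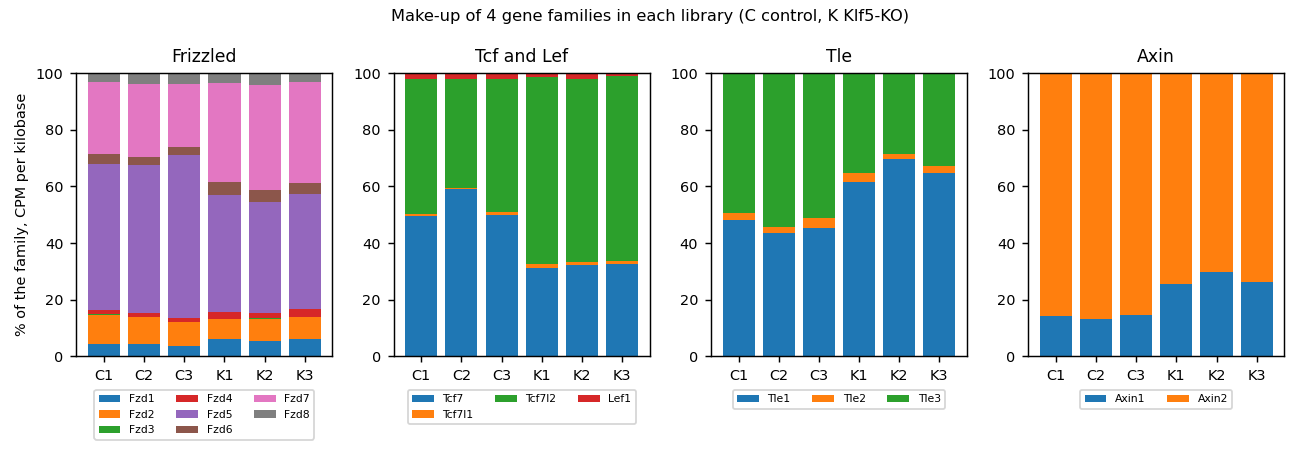
Share of each gene among the listed members of its family (percent of summed CPM per kilobase of exon) in the 6 libraries, for the Frizzled, Tcf and Lef, Tle and Axin families. Tle4, Tle5 and Tle6 are not among the listed members. In the KO-labelled libraries (K1 to K3) Tcf7 holds 31.2 to 32.6% against 49.6 to 59.2% in the controls (C1 to C3), and Tle3 28.6 to 35.2% against 49.4 to 54.4%.

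On the same per-length scale, Axin2 (114 ± 15.4 CPM per kilobase), Ctnnb1 (101 ± 4.35) and Myc (101 ± 7.43) had the highest levels in the controls, and their values overlapped. Sox9 (55.9 ± 2.68) and Lgr4 (43.7 ± 2.57) followed and were apart from each other, whereas Fzd5 (35.6 ± 3.78), Rnf43 (34.0 ± 3.47) and Gsk3a (30.3 ± 1.98) overlapped in part. Sfrp5 was the ninth at 25.3 ± 4.43 CPM per kilobase. In the KO-labelled libraries Ctnnb1 was highest at 91.2 ± 5.03, Axin2 had a level of 44.3 ± 4.01, overlapping those of Lgr4 and Sox9, and Sfrp5 had a level of 1.22 ± 1.02 CPM per kilobase.

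Among the 5 target genes Myc and Sox9 fell. Myc, the growth regulator induced by β-catenin in the intestine (chromosome 15, 61985391-61990374, mm10), was at 271, 295 and 255 CPM in the controls and at 141, 182 and 177 CPM in the KO-labelled libraries. The groups were apart by a wide gap (adjusted p = 0.0022, log2 fold change -0.72 ± 0.11 SE). Sox9, a transcription factor of crypt cells (chromosome 11, 112782224-112787760), was at 221, 243 and 229 CPM in the controls and at 158, 179 and 183 CPM in the KO-labelled libraries. It too did not overlap between groups (adjusted p = 0.0091, log2 fold change -0.42 ± 0.09 SE). Cd44, a hyaluronan receptor of crypt cells, was at 152, 162 and 153 CPM in the controls and at 225, 173 and 187 CPM in the KO-labelled libraries. Its KO-labelled values were all higher, at an adjusted p of 0.0501 (log2 fold change 0.32, SE 0.11), and 5 alternative fits of all 6 libraries called it. Tnfrsf19 and Sp5, a receptor of crypt stem cells and a zinc-finger factor that Wnt induces, had log2 fold changes of -0.06 and 0.14 (SE 0.15 and 0.13, adjusted p = 0.79 and 0.49).

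A further 113 pathway genes outside the list gave 81 tested, of which 26 were lower and 8 were higher (42.0%, against 25.8% of all genes tested), with a median log2 fold change of -0.13. Of 20 further targets, all tested, 10 fell and 2 rose (over all genes, 12.5% were lower and 13.3% higher). Ascl2, Smoc2, Rgmb, Cdca7 and Slc12a2 among these targets are also in the list of crypt base stem cell markers. Mmp7 is also in that of Paneth cell markers. The largest falls were those of the crypt transcription factors Cdx1 and Ascl2. Cdx1 was at 211, 236 and 237 CPM in the controls and at 49.1, 50.5 and 50.4 CPM in the KO-labelled libraries (adjusted p = 1.3e-06, log2 fold change -2.19 ± 0.08 SE). Ascl2 had a log2 fold change of -2.10 with an SE of 0.17 (adjusted p = 5.5e-05), and the Eph receptors that position crypt cells, Ephb3 and Ephb2, had -1.57 and -1.09. Bmp4 and Msx1 rose from low levels (log2 fold changes 1.82 and 1.08).

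**Figure D5:**
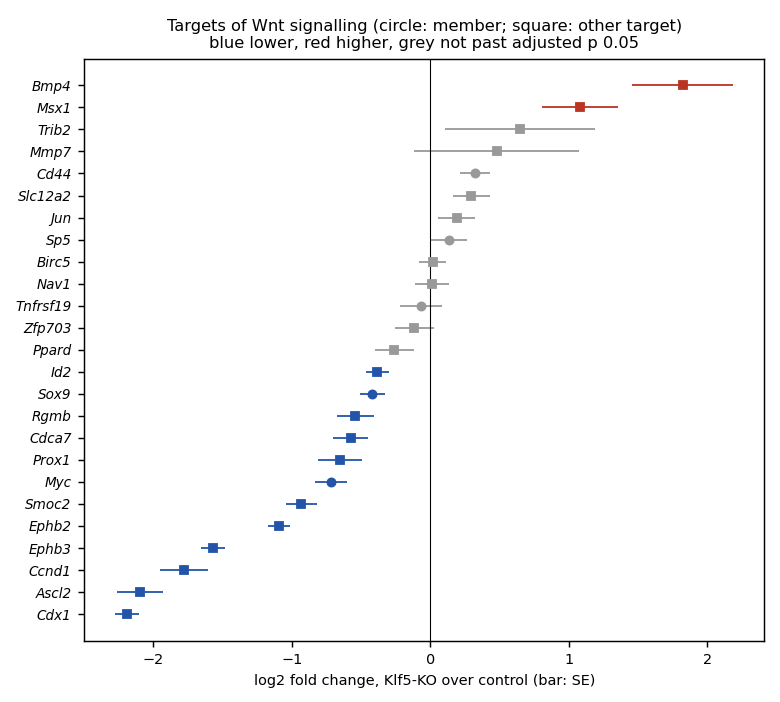
Log2 fold change (KO-labelled over control, horizontal axis; bars are 1 SE) of the 5 target genes among the members (circles) and of 20 further targets (squares). Blue marks lower and red higher calls; Cdx1 at -2.19 and Ascl2 at -2.10 lie farthest to the left, and Bmp4 at 1.82 farthest to the right.

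Among the further cytoplasmic parts was Dact1, which binds Dishevelled. It was at 1.25, 2.14 and 2.36 CPM in the controls and at 16.8, 15.2 and 15.7 CPM in the KO-labelled libraries. That 8.32-fold rise (adjusted p = 2.9e-05, log2 fold change 3.06 ± 0.22 SE) was in the opposite direction to those of its relative Dact3 (-1.03, adjusted p = 0.047) and of Frat2, which binds Gsk3 (-0.81, adjusted p = 0.0011). Amer2 and the kinase gene Csnk1g1 also rose (log2 fold changes 2.00 and 0.34), and Apc2 fell (-1.53). Of the 9 tested genes of planar polarity, the branch that orients cells in a sheet, 5 fell and none rose (over all genes, 12.5% and 13.3%), with Celsr1, Celsr3 and Vangl1 at -1.25, -1.08 and -0.62. Kremen2, a receptor for Dkk proteins, Lrp4 and the membrane inhibitor Apcdd1 fell (log2 fold changes -1.88, -0.44 and -0.96), and Ror2, a receptor for Wnt5a, rose (0.55). In the nucleus Ctnnbip1, which blocks the binding of β-catenin to Tcf, and the co-activator Bcl9 fell (-0.51 and -0.28), and the co-repressor Tle4 rose (0.40). On leaving out a library, the calls of Dact3 (5 of 6 fits), Bcl9 and Vangl1 (4), Lrp4, Csnk1g1, Ctnnbip1 and Msx1 (3), Celsr3 (2), and Apc2 and Tle4 (1) were lost, with adjusted p of up to 0.15 for Dact3 and up to 0.093 for the others. Apc2 lost its call without KO-labelled replicate 1 (adjusted p = 0.060) and Tle4 without KO-labelled replicate 3 (0.067). With all 6 libraries, the Dact3 call was also lost by limma-voom (adjusted p = 0.078) and under the replicate block (0.066), and the Bcl9 call with no low-count filter (0.071). Of the 20 further ligand genes only 5 could be tested and none was called, with none at an unadjusted p under 0.05. The R-spondin genes were almost absent, with at most 5 counts in any library.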

How the data were processed

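RNA was sequenced from 6 sorted stem cell samples after removal of ribosomal RNA. The authors deposited unnormalized read counts for each gene. The aligner was STAR 2.5.2a with the mm10 build, per the submitters' processing notes. The counter was featureCounts 1.4.3-p1 with GENCODE vM16 genes and reverse-stranded counting, per the file headers. The sources name no separate animals for the replicates, so p-values measure the spread between these samples, which may be technical. Libraries of a group differed by more than sampling noise (lowest chi-square over its degrees of freedom 40.3).

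IDs were matched to GENCODE vM21 symbols (53274 of 53379). The group test was edgeR 4.0.16 (R 4.3.3): filterByExpr, TMM scaling, the quasi-likelihood F test on group, and Benjamini-Hochberg adjustment over 19339 genes at 0.05. The biological coefficient of variation was 17.0%. CPM used TMM-scaled totals, and levels of different genes were compared per kilobase of exon. The SE is the size of the log2 fold change over the square root of F. The scripts were tested on simulated data. Depth was 61563625 to 77666540 counts, and floors of 3 counts cover counting error only.

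The members and the other lists were chosen with earlier results of these data known. Values in every library are given for called members and 11 preset ones. Of the other pathway genes, up to 3 per role and direction with the smallest adjusted p are named, plus Lgr5 and Ascl2. Alternatives included DESeq2 1.42.0 and limma 3.58.1.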

Additional observations from a re-analysis of the deposited data

How the results depend on the processing

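Of the 15 called members, 12 kept their direction and call in all 15 alternatives: 2 other scalings, removal of ribosomal RNA-like and mitochondrial genes, 2 other filters, DESeq2, limma-voom, robust dispersion, a replicate block and 6 fits each without a library. The exceptions were Wnt6, Fzd7 and Dvl2. Members called higher numbered 6 with no low-count filter, 7 by DESeq2 and 5 with robust dispersion, against 3 in the reported fit. All genes called higher numbered 3127, 2819 and 2621 in those fits, against 2581 in the reported fit. With a minimum change of 1.5-fold, 7 members were lower and 2 higher, and 17 of the other pathway genes were lower and 4 higher. At that minimum 1658 of all 19339 genes tested were lower and 1751 higher. Leaving out a library gave 10 to 13 members lower and 2 to 5 higher (5 without control replicate 3), and 13 to 27 of the other pathway genes lower (13 without KO-labelled replicate 1) and 5 to 10 higher (5 without control replicate 1 or KO-labelled replicate 3). Over all genes it gave 1467 to 2664 lower and 1605 to 2740 higher, the fewest without KO-labelled replicate 1. The lower count was also 1606 and 1526 without KO-labelled replicates 2 and 3, and the higher count 1689 without control replicate 2. The cause of these shifts was not tested.

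Of the 30 members without a call, 11 passed the threshold in at least 1 alternative. Among them Dkk3, Apc, Lrp6 and Znrf3 did so only without control replicate 3. Nkd1 and Tcf7l1 also did so without that library (log2 fold changes 0.66 and 1.42, edgeR adjusted p = 0.033 and 0.012). With all 6 libraries, Nkd1 passed with no low-count filter (adjusted p = 0.0082), by DESeq2 (0.033) and under the replicate block (0.037). Tcf7l1 passed with no low-count filter (0.028), by limma-voom (0.037) and with robust dispersion (0.048). Fzd3 passed without control replicate 2 (-1.82, 0.045), with no low-count filter (-1.50, 8.3e-04) and by DESeq2 (-1.52, 0.017). Its log2 fold change was -0.79 without control replicate 1. Lef1 and Cd44 passed without KO-labelled replicate 2 (-0.85 and 0.42, 0.036 and 0.029), and Cd44 also in the fits of all 6 libraries given above. Porcn and Fzd4 passed by DESeq2 (0.46 and 0.43, 0.047 and 0.042). Some members without a call changed sign in an alternative, without passing the threshold there. Most of them were near 0 in the reported fit. Wnt3 and Notum (log2 fold changes -0.43 and -0.20) changed sign without control replicate 3, and Dkk3 (0.32) without control replicate 1. On leaving out a library the log2 fold change ranged from -0.66 to 0.027 for Wnt3, from -0.081 to 0.11 for Lgr4, from -0.067 to 0.071 for Rnf43, from -0.20 to 1.69 for Dkk3, from -0.56 to 0.17 for Notum, from -0.0022 to 0.087 for Gsk3a, from -0.019 to 0.13 for Gsk3b, from -0.17 to 0.31 for Tle2, from -0.20 to 0.15 for Tnfrsf19 and from -0.023 to 0.24 for Sp5. Tle2 was also at -0.013 under upper-quartile scaling and at -0.0047 with the filter of CPM above 1 in 3 libraries. Wnt6 had no value under that filter.

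The labels give both groups the replicate numbers 1 to 3, but same-numbered samples did not deviate together (correlation of -0.01, 0.01 and -0.04 over 19339 genes). The reported fit therefore did not treat them as pairs. With 3 libraries a group, these correlations cannot show that the samples were unpaired. A fit with the replicate number as a block called 10 members lower and 4 higher, 23 and 7 of the other pathway genes, and 2088 and 2286 of all genes. No scaling moved the median of all genes by more than 0.03 (log2). With 3 libraries a group, small changes and genes under about 1 CPM were measured with little precision.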

Other observations

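Markers of several cell types also differed between the groups, where 12.5% of all genes tested were lower and 13.3% higher. The sum of 8 goblet cell markers was 2407 to 2676 CPM in the controls and 1181 to 1529.9 CPM in the KO-labelled libraries. Of the 8, 3 fell and 5 were not called. Most of the gap between the sums was that of Fcgbp. It was at 1689, 1531 and 1146 CPM in the controls and at 645, 419 and 505 CPM in the KO-labelled libraries. Of 10 enteroendocrine markers 7 fell, with sums of 152 to 310 CPM in the controls and 88.8 to 100.3 CPM in the KO-labelled libraries. Of 10 enterocyte markers 4 rose and none fell, with sums of 666 to 933 CPM in the controls and 1139 to 2194 CPM in the KO-labelled libraries. Of 7 tested tuft cell markers 4 rose and none fell, with sums of 73.1 to 95.6 CPM in the controls and 113 to 206 CPM in the KO-labelled libraries. Of 8 crypt base stem cell markers 6 fell and 1 rose. Lgr5, Ascl2, Smoc2, Rgmb, Cdca7 and Slc12a2 of this list are also among the further pathway genes above. Their calls are therefore the same results given again. Of 12 stromal markers only 5 could be tested. Of these, Pdgfrb, Vim and Myh11 fell (log2 fold changes -2.39, -1.18 and -1.42) and Col1a2 rose from 5, 1 and 3 counts in the controls to 34, 36 and 63 in the KO-labelled libraries (3.86). None of the 13 Paneth cell markers was called, with none at an unadjusted p under 0.05. All 13 were highest in control replicate 3, so the controls were widely spread. Their sum in the KO-labelled libraries (9909 to 12298 CPM) lay below that library (21471 CPM) and above control replicates 1 and 2 (1789 and 2289 CPM). The part of these cell types in the levels of the Wnt pathway genes was not tested.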
